A study of Mus musculus with 12 samples.

Results

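Rd76-9 tumors were examined for 9 receptor tyrosine kinase genes that are known from rhabdomyosarcoma (RMS), and for *Egfros*, a noncoding gene on the strand opposite *Egfr*. The kinase genes were *Egfr*, *Erbb2*, *Erbb3*, *Fgfr1*, *Fgfr4*, *Met*, *Pdgfra*, *Alk* and *Kit*. These 10 genes, of 38898 in the files, were chosen by name with earlier results of these data known, so their differences between groups are given as a description. RNA was sequenced from 12 dissected tumors, each grown from Rd76-9 cells, a mouse RMS line, in the flank of a wild-type C57/Bl6J mouse aged 8 to 12 weeks. There were 3 vehicle-treated tumors (m1, m2 and m3; saline and empty nanoparticles), 3 treated with vincristine (VCR, 0.25 mg/kg; m4, m5 and m6), 3 with RCM1-NPFA at 8 µg (m7, m8 and m9) and 3 with both drugs (m10, m11 and m12). VCR blocks the growth of microtubules, and RCM1 is an inhibitor of the transcription factor FOXM1, given here in nanoparticles that carry folic acid. All tumors were collected 16 days after the cells were implanted. They came from 1 cell line and were bulk tissue, so tumor cells and host cells were sequenced together. The sex of the mice is not stated in the sources used here.

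Receptor tyrosine kinases sit in the cell membrane, pair up when a ligand binds outside the cell, and phosphorylate tyrosines on each other and on adaptor proteins. The signal passes through RAS to the ERK kinases and through PI3-kinase to AKT, and is damped by inhibitors that ERK itself induces. In RMS, *FGFR4* and *PDGFRA* are known as sites of activating change or strong expression, and *ALK* and *MET* as targets of the PAX3-FOXO1 fusion protein of the alveolar subtype.

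Per tumor, kallisto assigned 29342195 to 32108055 reads. Levels are given as CPM, counts scaled to the library size after TMM normalization, and between genes as TPM, which also divides by transcript length. Of 17602 genes with enough reads to be tested by edgeR's quasi-likelihood test, 1006 (5.72%) had an adjusted p-value under 0.1 after VCR. None passed after RCM1-NPFA (0%) or after both drugs (0%), where 1722 and 1286 genes had an unadjusted p-value under 0.05. DESeq2 with all 12 tumors called 278 and 60 genes in these comparisons. The tissue label was checked against muscle lineage markers. *Myf5* and *Cdh15* were high in every tumor, with at least 1531 and 4061 counts. *Myod1* and *Myog*, which define RMS in the clinic, had at most 2 counts in any vehicle-treated tumor and 37 to 75 counts in each VCR-treated tumor, so these defining markers were at or near 0 in the former. In the combination tumors they had 14 to 51 counts, and after RCM1-NPFA they had 31 and 73 counts in m9 and at most 9 in m7 and m8. Transcripts of mature muscle fibers were higher in every VCR-treated and combination tumor than in any vehicle-treated tumor, and after RCM1-NPFA they were high in m9, while m7 lay within the vehicle range and m8 at 544 CPM. The summed level of 16 fiber genes was 308 to 442 CPM in vehicle-treated tumors, 2133 to 13917 CPM after VCR, 403 to 20716 CPM after RCM1-NPFA and 798 to 5400 CPM after both drugs, and 7 of the 16 were called higher after VCR.

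Per transcript length, *Fgfr1*, a receptor of fibroblast growth factors, was the highest of the 10 genes at 66.2 ± 10.2 TPM (SD over 12 tumors). *Met*, the receptor of hepatocyte growth factor, followed at 27.1 ± 4.37 TPM, and *Egfr*, the receptor of epidermal growth factor, at 23.3 ± 5.01 TPM. Their ranges over the tumors overlapped, and the range of *Egfr* also overlapped that of *Erbb2* at 14.5 ± 1.25 TPM. *Pdgfra* had 5.22 ± 0.986 TPM, *Kit* 2.31 ± 0.276 TPM and *Erbb3* 0.617 ± 0.125 TPM, each with a range apart from its neighbors. *Fgfr4* at 0.150 ± 0.0862 TPM, *Egfros* at 0.0525 ± 0.0258 TPM and *Alk* at 0.00871 ± 0.00807 TPM were near the limit of detection, with overlapping ranges between neighbors. *Fgfr1*, *Met*, *Egfr* and *Erbb2* thus had at least 13.0 TPM in every tumor, and *Fgfr4* and *Alk* at most 0.337 TPM.

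**Figure D1:**
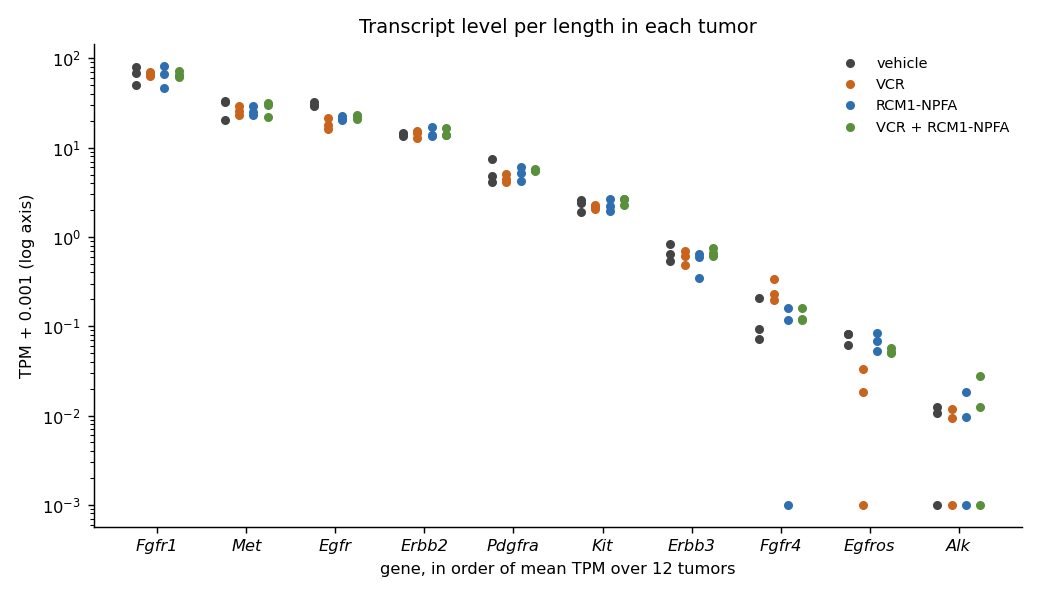
Level of each gene per transcript length (TPM on a log axis) in each of the 12 tumors, in order of the mean, with colors for the 4 groups. *Fgfr1* lay above the other genes, from 47.0 to 82.3 TPM, and tumors in which a gene was listed at 0 sit on the lowest line.

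*Egfr* was the member that stood lower in treated tumors. It had 91.8, 102 and 105 CPM in the vehicle-treated tumors and 63.1, 58.1 and 71.4 CPM after VCR. After RCM1-NPFA it had 66.9, 73.9 and 76.0 CPM, and after both drugs 72.7, 73.8 and 72.8 CPM. All 9 treated tumors were therefore below all 3 vehicle-treated tumors, and the gap between 91.8 and 76.0 CPM was free of tumors. In bulk tissue, fewer cells that express the gene and less RNA per cell cannot be told apart. Over all genes tested, 1.9% had every treated tumor below every vehicle-treated tumor, and *Egfr* was the only 1 of the 9 members tested that did. For single treatments this share was 10.9% after VCR, 5.86% after RCM1-NPFA and 5.53% after both drugs, where the members below were *Egfr* and *Egfros* after VCR, *Egfr* after RCM1-NPFA and both again after the combination.

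The mean level of *Egfr* was 99.4 ± 6.77 CPM (SD, n = 3) in vehicle-treated tumors, 64.2 ± 6.71 CPM after VCR, 72.3 ± 4.74 CPM after RCM1-NPFA and 73.1 ± 0.625 CPM after both drugs. Standard errors of edgeR fold changes were derived as the absolute log2 fold change over the square root of the test's F statistic. EdgeR estimated a log2 fold change of -0.63 for VCR (standard error 0.084, adjusted p = 0.0486 by Benjamini-Hochberg). It was -0.46 after RCM1-NPFA (standard error 0.084, adjusted p = 0.418), and -0.44 after both drugs (standard error 0.084, adjusted p = 0.666), so that edgeR called *Egfr* after VCR only. DESeq2 with all 12 tumors called it in each of these comparisons, with adjusted p-values of 1.0e-07, 0.0027 and 0.0078. Over all alternatives that kept the 12 tumors or the groups compared whole, the adjusted p ran from 1.0e-07 to 0.235 after VCR, 0.0027 to 0.803 after RCM1-NPFA and 0.0026 to 0.726 after both drugs. The 3 comparisons share their vehicle-treated tumors. Of the 9 members tested, edgeR called 2 after VCR, *Egfr* and *Egfros*, where 5.72% of all genes were called, and 0 in the other comparisons. In fits that each dropped 1 tumor, the value after VCR ran from -0.74 to -0.56, and the call was lost without m2 (adjusted p = 0.156), m4 (0.213), m5 (0.280) or m11 (0.113).

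**Figure D2:**
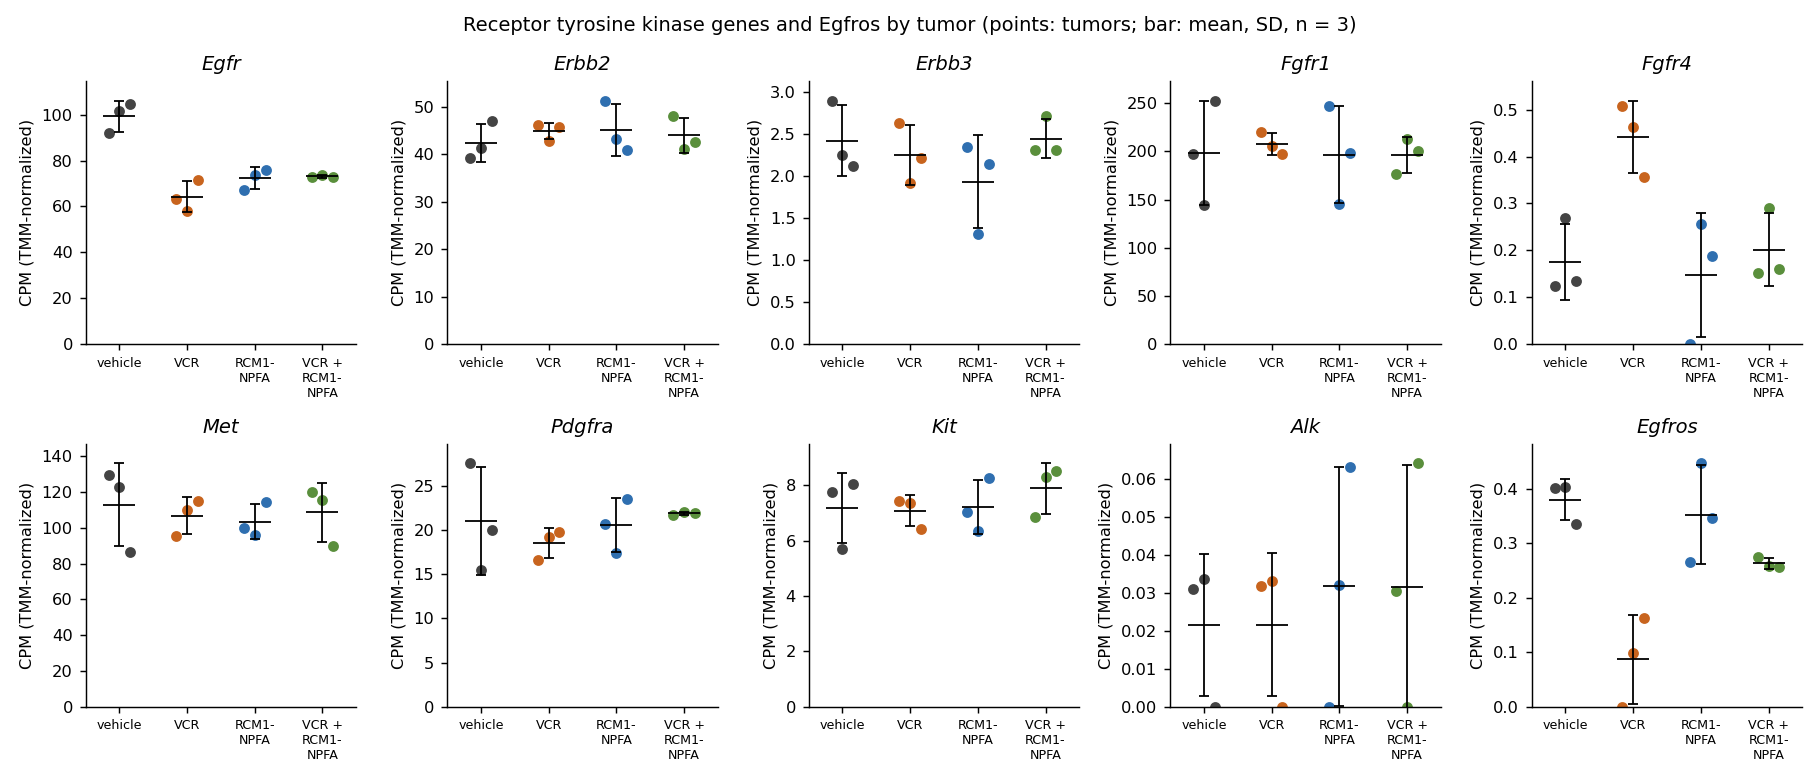
TMM-normalized CPM of the 9 receptor genes and *Egfros*, one point per tumor, with the mean and SD of the 3 tumors in each group. For *Egfr* every treated tumor lay below the lowest vehicle-treated tumor at 91.8 CPM, while the groups of *Erbb2*, *Erbb3*, *Fgfr1*, *Met*, *Pdgfra*, *Kit* and *Alk* overlapped.

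The levels of *Egfr* and of muscle fiber transcripts in the treated tumors were set side by side. In m7, m8 and m12, where the 16 fiber genes summed to 403, 544 and 798 CPM, *Egfr* had 66.9, 73.9 and 72.8 CPM. In m9, where they summed to 20716 CPM, *Egfr* had 76.0 CPM. In m10 and m11 they summed to 2768 and 5400 CPM, and *Egfr* had 72.7 and 73.8 CPM. After VCR they summed to 2133, 4497 and 13917 CPM in m6, m4 and m5. *Egfr* had 71.4, 63.1 and 58.1 CPM in these tumors, and so was lower at each higher fiber level within this group. With the summed fiber level as a term in the edgeR fit, the log2 fold change of *Egfr* after VCR was -0.63. Its adjusted p was 0.235, in a fit that called 2 genes in all. The fiber genes summed to 308 to 442 CPM in vehicle-treated tumors and 2133 to 13917 CPM after VCR. Fiber level and VCR therefore cannot be told apart in this fit, and the part of fibers in the level of *Egfr* was not tested. Markers of keratinocytes, cells that are rich in EGFR, were looked up as well. The summed level of 12 keratinocyte genes lay between 16.0 and 21.6 CPM in the 12 tumors. Most of it came from *Krt10*, *Sfn* and *Cdh1*, which other cells also express, while the defining genes *Krt5* and *Krt14* had at most 9 counts in any tumor. With that sum as a term *Egfr* was called by edgeR after VCR at an adjusted p of 0.0915. As the sum holds few counts of the defining genes, this fit does not adjust for keratinocytes, and their part was not tested.

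**Figure D3:**
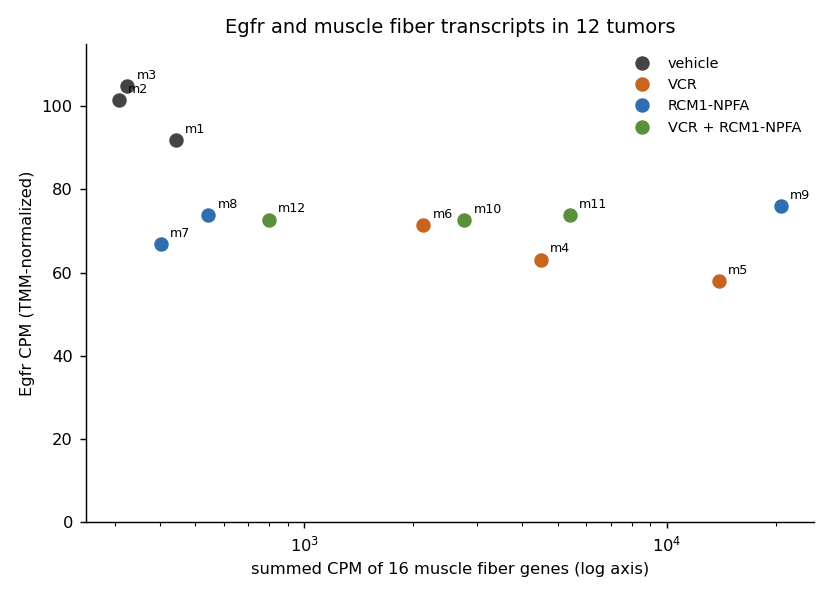
*Egfr* (CPM) against the summed level of 16 mature muscle fiber genes (CPM, log axis) in each tumor, named m1 to m12 and colored by group. The vehicle-treated tumors lay between 91.8 and 105 CPM of *Egfr*, all at fiber levels of 308 to 442 CPM. The treated tumors lay between 58.1 and 76.0 CPM of *Egfr*, at fiber levels from 403 to 20716 CPM. No vehicle-treated tumor had a high fiber level.

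*Egfr* lies on the plus strand of chromosome 11 (GRCm38, 16752203 to 16913907). The files hold 2 of its transcripts. The long one (RefSeq NM_207655.2) has 28 exons and 1210 codons and encodes the full receptor. The short one (NM_007912.4) has 16 exons and 655 codons, of which the first 642 are shared, so that it holds 53.1% of the long coding sequence and lacks the part for the kinase domain. The shared part ends in exon 16 at position 16887185. The coding bases on both sides of that point are shown because they are what separates a full receptor from a truncated one. Lower case marks the shared bases and capitals the bases that belong to 1 transcript only.
Long transcript: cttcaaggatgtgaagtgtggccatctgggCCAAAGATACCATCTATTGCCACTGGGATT
Short transcript: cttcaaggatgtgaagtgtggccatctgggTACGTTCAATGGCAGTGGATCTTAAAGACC

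Both transcripts were lower in treated tumors. The long transcript had a mean of 89.8 ± 6.03 CPM (SD, n = 3) with vehicle, 59.7 ± 6.44 CPM after VCR, 67.0 ± 5.85 CPM after RCM1-NPFA and 67.8 ± 0.299 CPM after both drugs. The short transcript had 9.61 ± 0.780, 4.47 ± 0.289, 5.31 ± 1.13 and 5.28 ± 0.332 CPM in the same order. No treated tumor reached the lowest vehicle-treated tumor for either transcript. The long transcript held 90.1% to 93.9% of the estimated counts of *Egfr*, so its separation restates that of the gene. The share of all transcripts that separate in this way was not computed. The short transcript took 9.5% to 9.9% of the estimated counts of *Egfr* in vehicle-treated tumors and 6.7% to 7.4% after VCR. It took 7.0%, 7.7% and 6.9% after both drugs. After RCM1-NPFA the tumors were split, with 9.9% in m7, within the range of the vehicle-treated tumors, and 6.3% and 6.1% in m8 and m9. Reads from the shared exons are divided between the transcripts by an estimate, and no test was made of these shares.

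**Figure D4:**
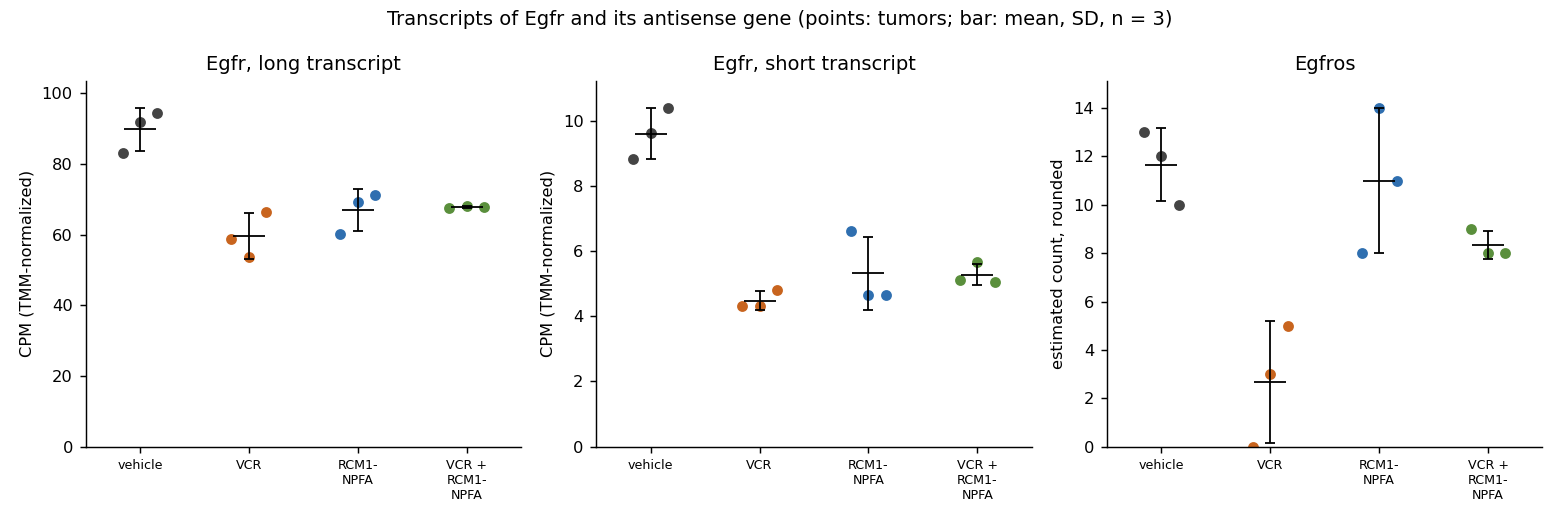
Estimated level of the long and the short transcript of *Egfr* (TMM-normalized CPM) and the estimated counts of *Egfros*, one point per tumor, with the mean and SD of the 3 tumors in each group. The short transcript lay at 8.82 to 10.4 CPM in vehicle-treated tumors and at 4.30 to 6.62 CPM in treated tumors.

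*Egfros* is a noncoding gene on the minus strand of chromosome 11, from 16809648 to 16830750, inside the first intron of *Egfr*. That intron is 106325 bases long, and 57078 bases lie between exon 1 and the span of *Egfros* and 28146 bases between that span and exon 2. No exon of *Egfr* in the GENCODE annotation lies within its span, so spliced *Egfr* messages share no bases with it. Unspliced *Egfr* messages do, and whether the libraries kept the strand is stated both ways in the sources, so such reads and *Egfros* reads may not be told apart. The 250 bases before each start, from RefSeq on GRCm38.p6 and each on the strand of its gene, are shown because the genes have separate starts. Capitals mark the letters GGGCGG or their reverse complement CCGCCC, the GC box, which 32.7% of the 32851 promoters in the table hold on either strand.
*Egfr* upstream (chr11:16751953-16752202, plus strand): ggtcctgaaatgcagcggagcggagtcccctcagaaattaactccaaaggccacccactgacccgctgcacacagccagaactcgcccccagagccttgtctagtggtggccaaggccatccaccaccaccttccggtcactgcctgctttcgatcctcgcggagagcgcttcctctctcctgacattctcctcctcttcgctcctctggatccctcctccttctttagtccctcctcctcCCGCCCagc
*Egfros* upstream (chr11:16830751-16831000, minus strand): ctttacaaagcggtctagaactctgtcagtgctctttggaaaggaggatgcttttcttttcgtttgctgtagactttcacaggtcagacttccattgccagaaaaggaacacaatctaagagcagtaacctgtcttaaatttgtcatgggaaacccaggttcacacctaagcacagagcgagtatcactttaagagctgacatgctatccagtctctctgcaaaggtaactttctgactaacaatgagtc

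The *Egfr* sequence was 60.8% G and C with 11 CG pairs and 1 GC box, and the *Egfros* sequence was 42.8% G and C with 3 CG pairs and no GC box. A further *Egfros* start in the table has an upstream sequence with 46.4% G and C and 2 CG pairs. These values stand against a median of 52.4% over all promoters. A sequence was in the table for 8 of the 10 members, all but *Erbb3* and *Fgfr1*. The letters TATAAA, the TATA box, were in 12.4% of all promoters and in 0 of these 8 members. The letters TGTTTAC, bound by forkhead factors such as FOXM1, were in 3.17% of all promoters and in 0 of these members, searched on both strands.

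*Egfros* was scarce. The estimated counts, rounded, were 13, 12 and 10 in vehicle-treated tumors, 0, 3 and 5 after VCR, 8, 14 and 11 after RCM1-NPFA, and 9, 8 and 8 after both drugs. The VCR-treated tumors were the lowest and did not overlap with any other group, and the combination tumors lay just under the vehicle-treated ones. Of all genes tested, 10.9% had every VCR-treated tumor below every vehicle-treated tumor, and 5.53% had every combination tumor below them. The share of genes with the VCR-treated tumors below all other groups was not computed. A count of 0, as in m4, allows up to 0.0952 CPM. The 8 counts summed over the VCR-treated tumors gave a ratio of 0.225 to the 35 counts of the vehicle-treated tumors, with a 95% exact interval for counting error of 0.0902 to 0.494. The ratio was 0.923 (0.556 to 1.53) after RCM1-NPFA and 0.699 (0.401 to 1.20) after both drugs. EdgeR gave a log2 fold change of -2.08 after VCR (standard error 0.59, adjusted p = 0.0946), a value that depends on the prior count, and -0.11 and -0.52 after RCM1-NPFA and both drugs (adjusted p = 0.967 and 0.818). The call after VCR held in 3 of 12 fits with 1 tumor left out. It was lost with the fiber term (adjusted p = 0.50) and without the low-count filter (0.117). In the alternatives that dropped no single tumor, the adjusted p ran from 0.0888 to 0.50.

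The levels of *Egfros* and *Egfr* were compared as a ratio. There were 4.39, 4.01 and 3.21 *Egfros* reads per 1000 *Egfr* reads in vehicle-treated tumors and 0, 1.71 and 2.32 after VCR. After RCM1-NPFA there were 3.99, 6.06 and 4.6, and after both drugs 3.77, 3.51 and 3.56. On the log2 scale with a pseudocount of 0.1 CPM, the ratio after VCR differed from vehicle by -0.83 (two-sided exact permutation test, p = 0.1, the smallest that 3 against 3 tumors allow, adjusted p = 0.3 over 3 tests). With a pseudocount of 0.5 CPM, which is above every level of *Egfros*, this difference was 0.038, although the ratios of the reads themselves did not overlap. After RCM1-NPFA it was 0.36 (exact p = 0.2, adjusted p = 0.3), and 0.41 with the larger pseudocount. After both drugs it was 0.041 (exact p = 0.9), and 0.23 with the larger pseudocount (exact p = 0.1). Over the 12 tumors the log2 levels of both genes were correlated (Pearson's r = 0.657, permutation p = 0.0204, and Spearman's rho = 0.804, permutation p = 0.00266, the only relation tested). Without m2 and m3, the tumors farthest from the median of *Egfr*, r was 0.716. Centered on the group means, r was 0.334 (permutation p = 0.289), so the relation within groups was not shown.

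The other ErbB receptors did not share the pattern of *Egfr*. *Erbb2*, which has no known ligand and acts as the partner of the other ErbB receptors, lay between 39.2 and 51.3 CPM in all tumors. Its group means were 42.4 ± 4.01 CPM with vehicle, 44.9 ± 1.78 CPM after VCR, 45.1 ± 5.49 CPM after RCM1-NPFA and 43.9 ± 3.70 CPM after both drugs, and its groups overlapped. The log2 fold changes were 0.081, 0.088 and 0.050, each with a standard error of 0.10 (adjusted p from edgeR of 0.686 or more). *Erbb3*, a neuregulin receptor whose own kinase is weak, had 2.90, 2.25 and 2.12 CPM with vehicle and 2.63, 1.92 and 2.21 CPM after VCR. It had 2.35, 1.31 and 2.14 CPM after RCM1-NPFA and 2.31, 2.72 and 2.31 CPM after both drugs. Tumor m8 was the lowest, and the groups overlapped. The largest of its log2 fold changes was -0.33 after RCM1-NPFA (standard error 0.24, adjusted p = 0.703).

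**Figure D5:**
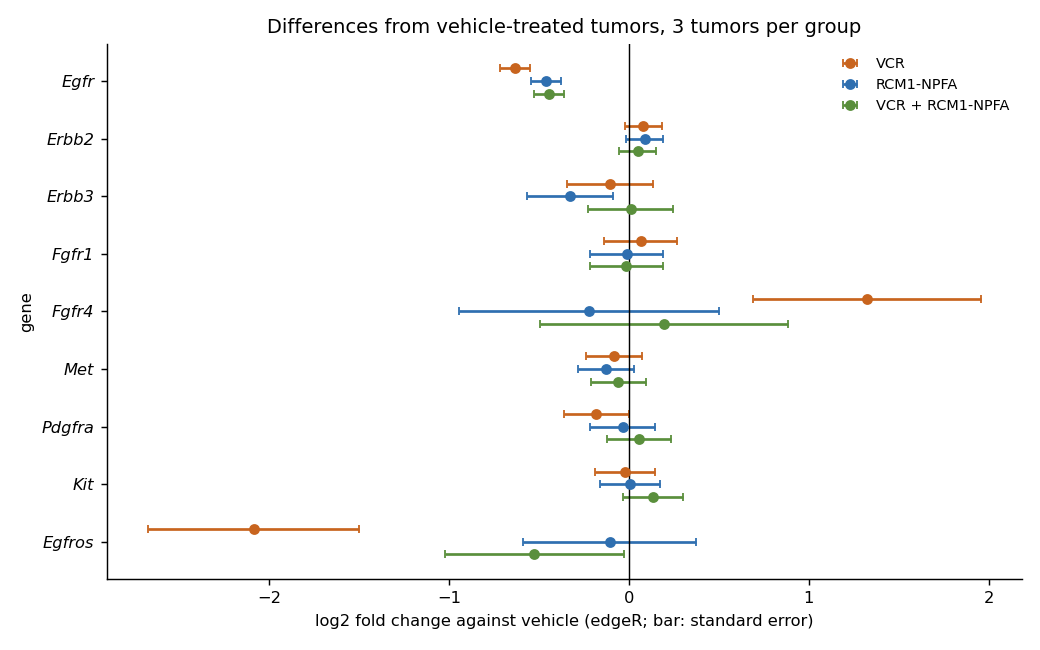
Log2 fold change against vehicle from edgeR for the 9 members tested, with a standard error derived from the F statistic, for VCR, RCM1-NPFA and both drugs (3 tumors per group). The 3 values of *Egfr* lay between -0.63 and -0.44 with standard errors of 0.084, and *Fgfr4* and *Egfros*, both scarce, had standard errors of 0.48 to 0.72.

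The fibroblast growth factor receptors differed widely in level, as the highest and the eighth of the 10 genes. *Fgfr1* varied between tumors of 1 group more than between groups, with 197, 144 and 253 CPM with vehicle and 247, 145 and 198 CPM after RCM1-NPFA. After VCR it had 220, 205 and 197 CPM, and after both drugs 176, 213 and 200 CPM. Its log2 fold changes were 0.067 after VCR, -0.011 after RCM1-NPFA and -0.013 after both drugs, each with a standard error of 0.20. *Fgfr4*, a receptor of regenerating muscle, had 4, 8 and 4 estimated counts with vehicle, 16, 14 and 11 after VCR, 0, 8 and 6 after RCM1-NPFA, and 5, 9 and 5 after both drugs. The VCR-treated tumors were all above the vehicle-treated ones, as were 13.5% of all genes tested. The 41 counts after VCR were 2.52 times the 16 counts with vehicle for the library sizes (95% exact interval 1.39 to 4.81, counting error only). In edgeR the log2 fold change was 1.32 (standard error 0.63, adjusted p = 0.245), and with the fiber term it was 0.79. The part of muscle fiber transcripts in this difference was not tested further.

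*Met* lay between 86.6 and 130 CPM. Its group means were 113 ± 23.1, 107 ± 10.3, 104 ± 9.88 and 109 ± 16.3 CPM with vehicle, VCR, RCM1-NPFA and both drugs. The vehicle-treated tumors alone spanned from 86.6 to 130 CPM, which held every treated tumor. The log2 fold changes were -0.082, -0.13 and -0.058 with standard errors of 0.15. Of its 5 transcripts, 1 had 0 counts in every tumor, and the shares of the others differed widely between tumors, as from 3.7% to 59.0% for NM_008591.2, so no transcript of *Met* is described on its own.

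*Pdgfra*, a receptor of platelet-derived growth factors that is also expressed by fibroblasts, had 27.6, 15.5 and 20.0 CPM with vehicle and 16.7, 19.3 and 19.9 CPM after VCR. It had 20.7, 17.5 and 23.6 CPM after RCM1-NPFA and 21.7, 22.1 and 21.9 CPM after both drugs. The vehicle-treated tumors spanned the range of the treated ones. The log2 fold changes were -0.18, -0.033 and 0.057 with standard errors of 0.18. The 10 fibroblast markers summed to 4508 to 6259 CPM with vehicle and 5536 to 6054 CPM after VCR, and these ranges overlapped. After VCR 3 of the 10, *Col1a1*, *Dcn* and *Pi16*, were called higher and 0 lower, where 5.72% of all genes were called. The markers did not all move alike. *Col3a1* had 76775, 56406 and 91732 counts with vehicle and 69721, 56886 and 76866 after VCR. *Kit*, the stem cell factor receptor of mast cells and melanocytes, lay between 5.71 and 8.52 CPM, with group means of 7.18 ± 1.28, 7.08 ± 0.559, 7.23 ± 0.974 and 7.89 ± 0.909 CPM. Its log2 fold changes were -0.022, 0.0084 and 0.14 with standard errors of 0.17. Markers of mast cells summed to 2.72 to 6.85 CPM with vehicle and 7.80 to 15.4 CPM after VCR, while *Kit* overlapped between these groups. Of the 6 mast cell markers tested, 1, *Cma1*, was called higher after VCR, where 5.72% of all genes were called. The 2 main transcripts of *Kit*, 5205 and 5189 bases long, each took from 0% to 100% of its counts in single tumors. *Alk*, which is mainly a gene of the developing nervous system, had 0 to 2 counts per tumor, 10 in all 12 tumors together. It was not tested, and the limit that a count of 0 allows was 0.0970 to 0.101 CPM.

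Both drugs together were also compared with each single drug. Against VCR, edgeR called 0 genes (0%) in the combination. Against RCM1-NPFA it called 0 (0%), and 0 (0%) in the interaction of the drugs, with 926, 364 and 2437 genes at an unadjusted p-value under 0.05. DESeq2 with all 12 tumors called 0, 0 and 472 genes. *Egfr* was higher in the combination than after VCR by 0.19 on the log2 scale (standard error 0.084, adjusted p = 0.855) and differed from RCM1-NPFA by 0.016 (standard error 0.084). Its interaction term was 0.65 (standard error 0.12, unadjusted p = 0.000169, adjusted p = 0.293), and DESeq2 called it with an adjusted p of 0.0022. The interaction of *Egfros* was 1.66 (standard error 0.78, adjusted p = 0.370). The interactions of the other 7 members tested lay between -0.91 for *Fgfr4* and 0.44 for *Erbb3*, with adjusted p-values of 0.572 or more.

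The ligands of these receptors were measured in the same tumors. Of 30 ligand genes, 19 had enough reads to be tested and 0 were called higher or lower in any of the 3 comparisons with vehicle, with median log2 fold changes of -0.045, -0.035 and 0.015 against 0.0016, 0.0028 and 0.0016 over all genes. The most abundant ligand of EGFR was *Hbegf*, heparin-binding EGF-like growth factor, at 27.1 ± 6.63 TPM (SD over 12 tumors), far above *Egf* at 1.12 ± 0.694 TPM and *Areg* at 1.11 ± 0.568 TPM. The log2 fold changes of *Hbegf* were 0.039, 0.066 and -0.026 with standard errors of 0.30. *Nrg1*, the neuregulin that ERBB3 binds, had 17.9 ± 3.46 TPM, and differed most after VCR, by -0.35 on the log2 scale (standard error 0.12, adjusted p = 0.133). The ligands of PDGFRA were higher than the receptor itself, with 44.1 ± 8.90 TPM for *Pdgfa*, 28.5 ± 6.18 TPM for *Pdgfc* and 22.6 ± 3.09 TPM for *Pdgfb*. *Pdgfc* had the smallest p-value of the ligands after RCM1-NPFA, where it had 59.6 ± 9.57 CPM against 39.1 ± 7.03 CPM with vehicle (log2 fold change 0.61, standard error 0.16, adjusted p = 0.418). *Fgf21* was the most abundant ligand of FGFR1 in the list at 8.69 ± 4.99 TPM, *Kitl* had 5.93 ± 1.25 TPM, and *Hgf*, the ligand of MET, had 2.55 ± 0.726 TPM. Both ALK ligands were scarce or absent from the counts, with a mean of 0.0504 TPM and a range from 0 to 0.256 TPM for *Alkal2*, and 0 in every tumor for *Alkal1*.

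Other genes of the pathway were taken from fixed lists. After VCR, 4 of the 27 other receptor tyrosine kinases tested were called, where 5.72% of all genes were. No call from these lists passed at a threshold of 0.05. Without m2, m4 or m5 edgeR called 0 genes after VCR, so none of these calls held in those fits. *Ror2*, a WNT5A receptor, had 0.709 ± 0.281 CPM with vehicle and 1.79 ± 0.263 CPM after VCR (log2 fold change 1.32, adjusted p = 0.0870 from edgeR). *Tie1*, a gene of endothelial cells, was higher at 30.6 ± 5.46 against 17.4 ± 5.26 CPM (log2 fold change 0.81, adjusted p = 0.0763). The 8 endothelial markers, *Tie1* included, summed to 147 to 206 CPM with vehicle and 204 to 269 CPM after VCR, and their part in that difference was not tested. Of these 8, 1 was called after VCR, *Tie1* itself, where 5.72% of all genes were called. The markers did not all move alike. *Vwf* had 716, 486 and 1008 counts with vehicle and 443, 451 and 514 after VCR. *Ddr2*, a collagen receptor, fell from 226 ± 21.0 to 166 ± 15.5 CPM (log2 fold change -0.44, adjusted p = 0.0694). *Insr*, the insulin receptor, fell from 53.4 ± 8.05 to 40.9 ± 1.89 CPM (log2 fold change -0.38, adjusted p = 0.0967).

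Of 30 genes of adaptors and the kinase cascade, 2 were called after VCR, a share near the 5.72% of all genes. Of these, *Hras* rose from 48.0 ± 3.58 to 65.0 ± 8.23 CPM (log2 fold change 0.44, adjusted p = 0.0694), and *Pik3ca*, a catalytic subunit of PI3-kinase, fell from 83.6 ± 1.47 to 66.5 ± 6.60 CPM (log2 fold change -0.33, adjusted p = 0.0869). Of 23 genes in a list of inhibitors of the pathway 1 was called, also near that share. It was *Lrig2*, at 15.2 ± 1.37 CPM after VCR against 20.3 ± 1.55 CPM with vehicle (log2 fold change -0.42, adjusted p = 0.0834). Whether *Lrig2* acts as an inhibitor in these tumors was not tested. Of 15 genes that ERK signaling is known to induce 1 was called, again near the 5.72% of all genes. It was *Plaur*, the urokinase receptor, which was higher after VCR at 193 ± 30.1 against 140 ± 17.9 CPM (log2 fold change 0.47, adjusted p = 0.0870). The median log2 fold change of the ERK genes was -0.015 after VCR, -0.10 after RCM1-NPFA and -0.10 after both drugs. Over all genes it was 0.0016, 0.0028 and 0.0016 in the same order. For the other receptor tyrosine kinases it was 0.15, 0.12 and 0.12. It was -0.034, -0.011 and -0.025 for the adaptors and cascade, and -0.060, -0.037 and -0.057 for the inhibitors. Differences between these medians were not tested. None of these lists had a called gene after RCM1-NPFA or both drugs. Outside the ligands the smallest p-values there were those of *Tek* (log2 fold change 0.88 after RCM1-NPFA, standard error 0.29) and *Fosl1* (-0.62 after both drugs, standard error 0.19).

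The genes whose levels ran most like each member over the 12 tumors were sought among tested genes with a mean of at least 50 counts, as a description in which all genes share the libraries. For *Egfr* they were *Zfp280c* (Pearson's r of log2 CPM of 0.955), *Prune2* (0.928) and *Kif21a* (0.925). *Met* was most like *Trak2* (0.948), *Fgfr1* most like *Klf4* (0.905), *Erbb2* most like *Wipi2* (0.918), *Pdgfra* most like *Klhl24* (0.895) and *Erbb3* most like *Rab21* (0.870). *Kit* was most like *Nudt9* (0.942) and *Cldn5* (0.910), a tight junction gene of endothelial cells. For the scarce members the closest were *Metrn* for *Fgfr4* (0.919) and *Yeats2* for *Egfros* (0.905). None of the 27 closest genes was a member or one of the pathway genes tested.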

How the data were processed

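Poly-A libraries of the 12 tumors were assigned by the authors to the transcripts of GRCm38 with kallisto, whose version is not given in the sources used here. The deposited tables give for each transcript an estimated count, which is neither normalized nor whole, and a TPM value, with the transcript's length and effective length. The kit is called stranded and the libraries non-stranded in the study's notes, so reads of antisense genes cannot be separated with certainty. Titles and the study's methods, rather than the treatment label, which also names RCM1, put tumors in the vehicle group.

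All 120299 transcripts matched RefSeq genes of GRCm38.p6, giving 38898 genes. Estimated counts were added per gene and rounded. Genes kept by filterByExpr (minimum count 10) were TMM-normalized, and edgeR 4.0.16 (R 4.3.3, quasi-likelihood F tests) was run with all 12 tumors in one fit of 4 groups and Benjamini-Hochberg adjustment over all 17602 genes in each of 6 comparisons, at a threshold of 0.1. Nothing in the labels shows that the tumors of a group were more than separate samples of 1 cell line, and p-values measure their spread only. The members and gene lists were chosen with earlier results of these data known. The genes named are the members, their ligands, for each pathway list the called genes with the largest change (up to 3 per direction; 2 with the smallest p where none was called), and the 3 genes most correlated with each member. Standard errors of edgeR fold changes are the absolute log2 fold change over the square root of the F statistic. Intervals of scarce counts are exact and cover counting error only, and the limit of a count of 0 was taken as 3 counts per library. Correlations used 100000 permutations in Python 3.11.15 with scipy 1.17.1. Alternatives were DESeq2 1.42.0, limma-voom and limma on log2(TPM + 0.1) (limma 3.58.1), other normalization, filters, thresholds and sample sets, marker terms, and leaving out each tumor. The labels give no batch. Promoter sequences came from RefSeq and exon positions from GENCODE, both on GRCm38.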

Additional observations from a re-analysis of the deposited data

Results flagged for a closer look

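For 3 of the members, the effect of a single drug had 1 sign in all 3 tumors without the other drug and the opposite sign in all 3 tumors with it, as log2 differences from the mean of the group without the drug. Over all genes tested, 11% (1935 of 17602) showed such opposite signs for VCR and 17% (2988) for RCM1-NPFA, against 2 of the 9 members for each, and the spread of the group without the drug does not enter the signs. For *Egfr* the mean difference with VCR was -0.63 alone and 0.018 in tumors that also received RCM1-NPFA, which is within the spread of the tumors given RCM1-NPFA alone, and the difference with RCM1-NPFA was -0.46 alone and 0.19 with VCR. For *Erbb3* the difference with RCM1-NPFA was -0.34 alone and 0.12 with VCR. For *Pdgfra* the difference with VCR was -0.14 alone and 0.10 with RCM1-NPFA, and the fold change after VCR alone was 0.065 without vehicle tumor m1. The interaction term of edgeR for these genes was 0.65 for *Egfr* (adjusted p = 0.293), 0.44 for *Erbb3* (adjusted p = 0.572) and 0.27 for *Pdgfra* (adjusted p = 0.663). None of them passed the threshold in edgeR, and DESeq2 called that of *Egfr*. The differences with and without the other drug were not tested in another way, and groups of 3 were too small for the test of an outlying tumor used here.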

How the results depend on the processing

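No paired analysis was possible because the tumors are numbered from 1 to 12 and no number occurs in more than 1 group. Of the values recomputed under the alternatives, 790 kept their direction and their side of the threshold or stayed within the spread of the tumors, 53 moved further, 47 turned, 23 lost a call and 4 gained one. Some of the 790 could not differ, as uncalled fold changes repeated at a threshold of 0.05. The number is therefore no measure of robustness. The 23 include *Egfros* after VCR in DESeq2 with all 12 tumors, which gave it no adjusted p. The cause of a change was not tested unless one is given. After VCR, 1006 genes were called in edgeR, 9 at a threshold of 0.05, 599 without a filter on counts, 465 with only the groups compared, 114 with limma on TPM, 12 with a keratinocyte term, 2 with a muscle fiber term and 2215 with DESeq2. Dropping m2, m4 or m5 gave 0 genes, the lowest number, and dropping m6 gave 2012, the highest. Of the members, 2 were called after VCR, 1 at 0.05, without a filter, with a mean of at least 50 counts, with limma on TPM, with the keratinocyte term, with the groups compared and in both forms of DESeq2, and 0 with the fiber term, where the log2 fold changes were -0.63 for *Egfr* and -2.03 for *Egfros*. With a mean of at least 50 counts *Egfros* was not tested, and DESeq2 with all 12 tumors gave it no adjusted p, so neither could call it. With 1 tumor left out, 0 to 2 members were called. After RCM1-NPFA, limma on TPM called 1 gene, and DESeq2 called 278 genes with all tumors and 34 with the groups compared, *Egfr* being the 1 member in both. After the combination, the fiber term gave 2 genes, and DESeq2 gave 60 with all tumors and 251 with the groups compared, again with *Egfr* as the 1 member. Between the combination and VCR, limma on TPM called 1 gene and DESeq2 with the groups compared 40. Between the combination and RCM1-NPFA these numbers were 1 and 18. In the interaction DESeq2 called 472 genes and 1 member, *Egfr*. Leaving out 1 tumor gave edgeR 0 to 8 genes after RCM1-NPFA (8 without m3), 0 to 44 after the combination (44 without m9) and 0 to 1 in the interaction (1 without m7). The log2 ratio of *Egfros* to *Egfr* after VCR turned to 0.038 with a pseudocount of 0.5 and to 0.15 on TPM, where the combination gave 0.23 and 0.27, and after the combination it ran from -0.066 to 0.13 with 1 tumor left out. The correlation of these genes fell to 0.334 within groups. The long transcript held 83.6% of *Egfr* by TPM.

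Uncalled fold changes near 0 also turned. *Kit* after RCM1-NPFA was -0.013 with a mean of at least 50 counts, -0.0089 on TPM and -0.098 with the fiber term. After the combination, *Erbb3* was -0.0049, -0.064 and -0.0042 with that filter, the fiber term and the keratinocyte term, *Fgfr1* was 0.020 with limma-voom and 0.036 on TPM, and with the fiber term *Fgfr4* was -0.19 and *Pdgfra* -0.064. With 1 tumor left out, the ranges after VCR were -0.23 to 0.046 for *Erbb3*, -0.13 to 0.28 for *Fgfr1*, -0.24 to 0.029 for *Met*, -0.38 to 0.065 for *Pdgfra* and -0.18 to 0.070 for *Kit*. After RCM1-NPFA they were -0.31 to 0.059 for *Egfros*, -0.015 to 0.17 for *Erbb2*, -0.21 to 0.20 for *Fgfr1*, -0.83 to 0.34 for *Fgfr4*, -0.22 to 0.21 for *Pdgfra* and -0.14 to 0.10 for *Kit*. After the combination they were -0.032 to 0.13 for *Erbb2*, -0.075 to 0.16 for *Erbb3*, -0.21 to 0.20 for *Fgfr1*, -0.16 to 0.61 for *Fgfr4*, -0.22 to 0.061 for *Met*, -0.13 to 0.30 for *Pdgfra* and -0.015 to 0.23 for *Kit*. At 0 to 16 counts per tumor, the differences of *Fgfr4*, *Egfros* and *Alk* rest on few reads.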
